A study of Mus musculus with 12 samples.

Results

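The genes described here are the clotting factors, their inhibitors, the fibrinolytic system and the vitamin K cycle, 36 genes in all. They were taken from a fixed list of symbols, mapped to the Ensembl gene IDs of the files, and all 36 were found among 55385 listed genes. All 36 also passed the filter on low counts, which left 15090 genes for testing. The samples were primary hepatocytes from 3 mice, cultured with a small interfering RNA (siRNA) for 48 h and sequenced as total RNA. The 4 groups received siRNAs against Hnf4a and Cebpa together (the double knockdown), against Hnf4a (siHnf4a), against Cebpa (siCebpa) or a control siRNA (siCon), with 1 library per mouse in each. All groups shared collagen-coated plates, serum-containing Williams' E medium and dexamethasone, a glucocorticoid. Only transcripts were measured, not plasma proteins, and the labels give no genotype, strain, sex or age of the mice.

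Plasma clotting proteins are made largely by hepatocytes and secreted as inactive precursors. Tissue factor with factor VII starts the cascade, the contact and intrinsic factors amplify it, and thrombin from prothrombin then cuts fibrinogen to fibrin. Antithrombin, protein C, protein S and protein Z limit clotting, and plasmin from plasminogen dissolves the clot. HNF4A, a nuclear receptor, and C/EBPA, a basic leucine zipper factor, both bind regulatory DNA of many liver genes.

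Hnf4a transcripts had 40.1, 33.5 and 34.1 counts-per-million (CPM, scaled by trimmed mean of M values) in mice 1, 2 and 3 of the double knockdown and 56.7, 59.2 and 46.4 in siHnf4a, against 144, 248 and 297 in siCon. Cebpa had 109, 89.0 and 84.5 CPM in the double knockdown and 33.7, 30.3 and 26.1 in siCebpa, against 179, 211 and 189 in siCon. The double knockdown therefore kept 48.8% of the siCon level of Cebpa, while siCebpa alone kept 15.6%. The library totals were 22453445 to 25008195 counts. Albumin, the defining hepatocyte product, reached 4189 to 13907 CPM, and the summed level of 11 hepatocyte markers was 8808 to 13166 CPM in the double knockdown, 10624 to 17585 in siHnf4a and 10779 to 24220 in siCebpa, against 15299 to 20984 in siCon. Most of each sum was Alb and Hpx, and the markers differed in direction. In siHnf4a Tdo2 averaged 383%, Cps1 327% and Tat 237% of siCon, but Hpx 51.6% and Ambp 55.6%. With mouse as a block 4 of the 11 were higher and 2 lower in siHnf4a, beside 14.5% and 15.5% of all genes tested. In the double knockdown 2 were higher and 5 lower, beside 13.8% and 15.6%. No marker of another cell type listed was at 0 in all 12 libraries. Summed endothelial markers (11 genes) were 70.1 to 95.9 CPM in the double knockdown, 84.7 to 112 in siHnf4a and 61.1 to 90.6 in siCebpa, against 85.1 to 117 in siCon. Summed stellate cell and fibroblast markers (12 genes) were 89.8 to 149, 99.8 to 143 and 89.5 to 171 CPM in the same 3 knockdowns, against 153 to 182 in siCon. Summed macrophage markers (13 genes, 10 of them tested) were 93.3 to 355 CPM in the double knockdown, 96.1 to 422 in siHnf4a and 59.2 to 370 in siCebpa, against 83.5 to 262 in siCon. Most of each sum was Cd68, which alone reached 415 CPM, and no other of these markers exceeded 6.33 CPM (Lyz2). The median log2 fold change against siCon of the 10 tested was -1.24 in the double knockdown, -1.0 in siHnf4a and -1.21 in siCebpa. None was called without mouse as a block. With the block 5, 3 and 3 were lower in the same order, beside 15.6%, 15.5% and 8.11% of all genes tested. Summed cholangiocyte (bile duct cell) markers (6 genes, 4 of them tested) were 32.2 to 160 CPM in the double knockdown, 50.8 to 166 in siHnf4a and 35.1 to 125 in siCebpa, against 79.1 to 269 in siCon. Of these, Krt19 was lower in the double knockdown at -2.94 ± 0.62 log2 (adjusted p = 0.0104) and in siHnf4a at -2.69 ± 0.61 (adjusted p = 0.0145), and Sox9 at -1.58 ± 0.24 (adjusted p = 0.00186) and -1.01 ± 0.24 (adjusted p = 0.0174) in the same groups. The part of these markers in the results below was not tested. In such bulk RNA, fewer cells of a type and less RNA per cell cannot be told apart.

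In siCon cells, on the transcripts-per-million (TPM) scale that allows genes to be compared, the most abundant of the 36 were the fibrinogen chains Fga at 390 ± 30.3 TPM and Fgb at 368 ± 83.8 TPM (SD, n = 3). Kng1, which encodes kininogen, followed at 315 ± 21.7 TPM and F2, which encodes prothrombin, at 288 ± 72.8 TPM. The library ranges of neighbours in this order overlapped, Fga with Fgb, Fgb with Kng1 and Kng1 with F2, so that the order was not resolved. At the other end, Tfpi stood at 1.31 ± 0.212 TPM, Klkb1 at 1.12 ± 0.182 TPM and F8 at 0.411 ± 0.0629 TPM, and the F8 libraries lay below those of both other genes. F8 and Tfpi are made mainly by endothelial cells.

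**Figure D1:**
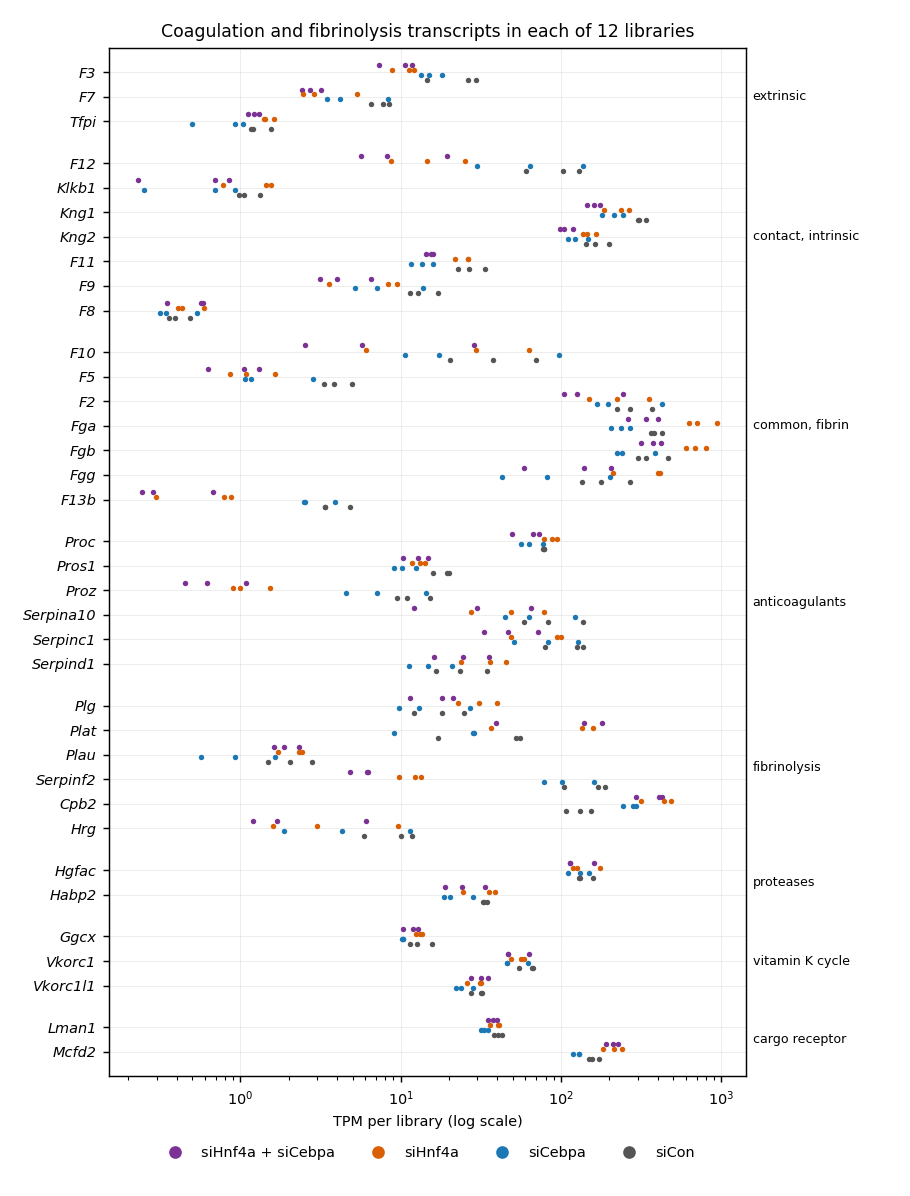
TPM of the 36 genes in each of the 12 libraries on a log axis, with genes in rows grouped by role and 3 points per group. The libraries of the double knockdown and of siHnf4a lie left of siCon for F12, F13b, Proz and Serpinf2, and the 3 siHnf4a libraries lie rightmost for Fga and Fgb.

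Across the 36 genes, the double knockdown had 12 lower and 2 higher genes than siCon, siHnf4a had 6 lower and 4 higher, and siCebpa had 1 lower and 1 higher, at an adjusted p under 0.05 in edgeR's quasi-likelihood test. Of all genes tested, 7.13% were lower and 6.9% higher in the double knockdown, 7.29% lower and 7.24% higher in siHnf4a, and 1.72% lower and 2.94% higher in siCebpa. The 3 comparisons share the siCon libraries. With mouse as a block the counts were 18 lower and 3 higher in the double knockdown, 12 lower and 8 higher in siHnf4a, and 11 lower and 1 higher in siCebpa. The background with the block was 15.6% lower and 13.8% higher, 15.5% lower and 14.5% higher, and 8.11% lower and 8.73% higher in the same order. The median log2 fold change of the 36 genes was -0.55 in the double knockdown, -0.14 in siHnf4a and -0.28 in siCebpa, beside 0.0 for all genes tested in each case.

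**Figure D2:**
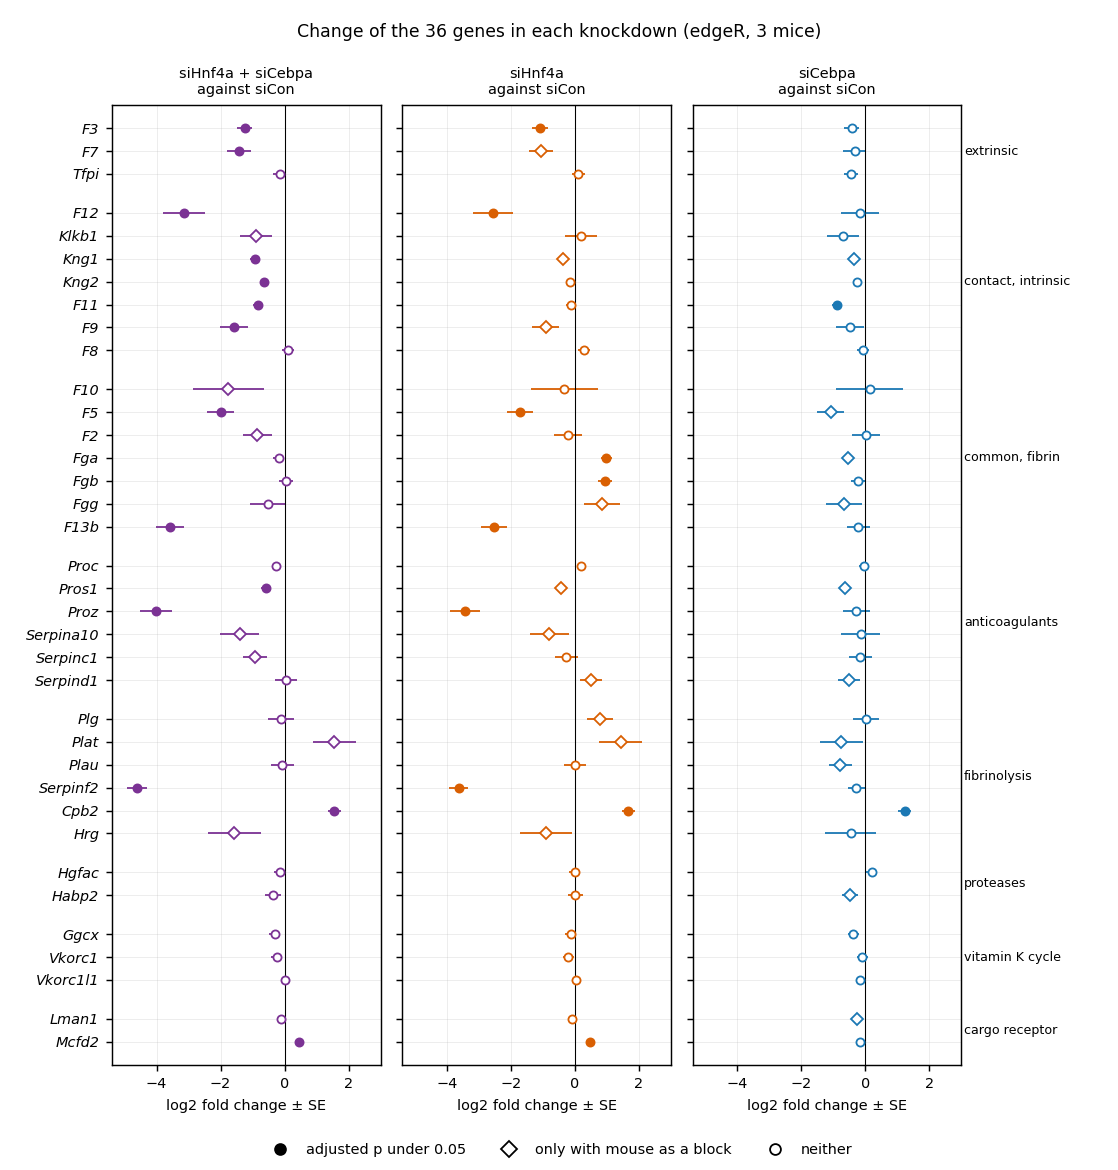
Log2 fold change against siCon (point) with its standard error (bar) for the 36 genes in the double knockdown, siHnf4a and siCebpa, grouped by role. Filled circles passed the adjusted p of 0.05, open diamonds passed it only with mouse as a block, and the siCebpa panel has 2 filled circles, F11 and Cpb2.

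Of the 3 genes of extrinsic initiation, F3 was lower in siHnf4a and in the double knockdown, F7 was lower in the double knockdown, and Tfpi passed in neither. F3 encodes tissue factor, the membrane receptor of factor VII. F3 had 13.4, 11.7 and 8.55 CPM in the double knockdown, 13.6, 13.7 and 10.1 in siHnf4a and 17.8, 18.5 and 23.0 in siCebpa, against 17.4, 32.9 and 29.7 in siCon. Every library with Hnf4a siRNA was below every siCon library, by a log2 fold change of -1.25 ± 0.24 (SE; adjusted p = 0.00695) in the double knockdown and -1.10 ± 0.24 (adjusted p = 0.0131) in siHnf4a. Tissue factor is also made by stellate cells and fibroblasts, whose marker sums, given above, were below siCon in the double knockdown and siHnf4a. The median log2 fold change of these 12 markers was -0.33 and -0.12 in the same order, and Acta2 was called lower in siHnf4a. With mouse as a block 3 and 4 of the 12 were lower, beside 15.6% and 15.5% of all genes tested. The part of these cells in the F3 result was not tested. The siHnf4a call for F3 ended without siHnf4a replicate 3 (adjusted p = 0.0519), siCon replicate 2 (0.0611) or siCon replicate 3 (0.0509). This and all later omissions of single libraries used the fit without mouse as a block.

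F7 encodes the circulating protease that tissue factor activates. F7 had 3.78, 3.12 and 2.92 CPM in the double knockdown, 6.52, 3.33 and 2.88 in siHnf4a and 11.1, 5.36 and 4.56 in siCebpa, against 10.0, 7.46 and 9.06 in siCon. The double-knockdown and siHnf4a libraries all lay below siCon, with log2 fold changes of -1.43 ± 0.37 (adjusted p = 0.0263) and -1.06 ± 0.37 (adjusted p = 0.0795, which became 0.00273 once mouse was a block in the fit). The F7 call in the double knockdown ended without any 1 of its own 3 libraries (adjusted p of 0.0535, 0.0942 and 0.0909 for replicates 1, 2 and 3) or of the siCon libraries (0.0625, 0.0551 and 0.0724). Tfpi, whose product inhibits tissue factor with factor VII, had 1.67 to 1.69 CPM in the double knockdown, 1.81 to 2.11 in siHnf4a and 1.04 to 1.63 in siCebpa, against 1.63 to 2.21 in siCon.

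Among the 7 contact and intrinsic genes, 5 were lower in the double knockdown (F12, F9, Kng1, F11 and Kng2), 1 in siHnf4a (F12) and 1 in siCebpa (F11). F12 encodes factor XII, the protease that starts the contact system, at chr13:55417958-55426793 on the minus strand of GRCm38. F12 had 24.1, 9.61 and 7.22 CPM in the double knockdown, 32.3, 17.9 and 10.7 in siHnf4a and 192, 86.9 and 41.7 in siCebpa, against 161, 125 and 74.4 in siCon. The libraries with Hnf4a siRNA averaged 11.3% of siCon in the double knockdown and 16.9% in siHnf4a and did not overlap with siCon, while siCebpa did overlap. The log2 fold changes were -3.14 ± 0.65 (adjusted p = 0.00929) in the double knockdown, -2.57 ± 0.63 (adjusted p = 0.021) in siHnf4a and -0.17 ± 0.59 (adjusted p = 0.907) in siCebpa. In every group mouse 1 had the most F12 and mouse 3 the least. The siHnf4a call ended without siHnf4a replicate 2 (adjusted p = 0.087), siHnf4a replicate 3 (0.0761) or siCon replicate 2 (0.0633), and with mouse as a block its adjusted p was 5.65e-06.

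F11 encodes factor XI, which activates factor IX. F11 had 21.0, 21.1 and 23.4 CPM in the double knockdown, 37.5, 37.3 and 30.8 in siHnf4a and 24.4, 19.9 and 18.6 in siCebpa, against 32.3, 36.7 and 47.5 in siCon. Here both groups with Cebpa siRNA lay below all siCon and all siHnf4a libraries, and siHnf4a overlapped with siCon. The log2 fold changes were -0.83 ± 0.15 (adjusted p = 0.00486) in the double knockdown, -0.14 ± 0.15 (adjusted p = 0.584) in siHnf4a and -0.89 ± 0.15 (adjusted p = 0.0119) in siCebpa. The siCebpa call ended without siCebpa replicate 3 (adjusted p = 0.0595), without siCon replicate 3 (0.0511), or when only siCebpa and siCon entered the fit (0.0909).

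F9 encodes factor IX, the protease absent in haemophilia B. F9 had 11.8, 7.01 and 5.76 CPM in the double knockdown, 17.6, 14.8 and 6.37 in siHnf4a and 27.9, 13.8 and 10.4 in siCebpa, against 30.8, 22.3 and 20.2 in siCon. Both groups with Hnf4a siRNA lay below siCon, by -1.57 ± 0.44 log2 (adjusted p = 0.0377) in the double knockdown and -0.92 ± 0.43 (adjusted p = 0.19, or 0.00315 with the block) in siHnf4a. The double-knockdown call ended without 7 of the 12 libraries taken singly, namely double-knockdown replicate 2 (adjusted p = 0.129) and 3 (0.128), siHnf4a replicate 2 (0.0589), siCebpa replicate 2 (0.0524) and siCon replicates 1 (0.0923), 2 (0.0856) and 3 (0.066).

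Kng1 and Kng2 encode kininogens, the cofactors of the contact system and precursors of bradykinin. Kng1 had 208, 184 and 170 CPM in the double knockdown, 321, 274 and 232 in siHnf4a and 316, 235 and 284 in siCebpa, against 353, 333 and 379 in siCon. All 3 knockdown groups lay below siCon, by -0.93 ± 0.14 log2 (adjusted p = 0.00181) in the double knockdown, -0.37 ± 0.14 (adjusted p = 0.109, or 0.0239 with the block) in siHnf4a and -0.35 ± 0.14 (adjusted p = 0.188, or 0.0443 with the block) in siCebpa. Kng2 had 95.6, 100 and 119 CPM in the double knockdown, 139, 158 and 142 in siHnf4a and 121, 128 and 160 in siCebpa, against 141, 153 and 195 in siCon. Only the double knockdown did not overlap with siCon for Kng2, at -0.64 ± 0.14 log2 (adjusted p = 0.0142), and this call ended without double-knockdown replicate 2 (0.053) or siCon replicate 3 (0.0579). The 2 kininogen genes are paralogs 28382 bp apart on chromosome 16, and reads they share could have been split between them. Klkb1, which encodes plasma prekallikrein, had 2.51, 2.99 and 0.859 CPM in the double knockdown, 5.33, 5.39 and 2.75 in siHnf4a and 3.67, 2.70 and 0.974 in siCebpa, against 4.76, 3.63 and 3.44 in siCon. The double knockdown was below siCon by -0.90 ± 0.50 log2 (adjusted p = 0.277, or 0.0232 with the block), and Klkb1 exons overlap those of Gm45753 on the same strand, which makes its count uncertain. F8, which encodes the cofactor of factor IX, ranged from 1.56 to 2.51 CPM over all 12 libraries and passed in no comparison.

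The common pathway split by gene. F5 and F13b were lower in siHnf4a and in the double knockdown, whereas the fibrinogen genes Fga and Fgb were higher in siHnf4a. F13b encodes the carrier subunit of factor XIII, the enzyme that crosslinks fibrin. F13b had 0.716, 0.433 and 0.301 CPM in the double knockdown, 1.39, 1.19 and 0.452 in siHnf4a and 6.74, 4.20 and 4.29 in siCebpa, against 7.5, 5.08 and 5.14 in siCon. The double knockdown averaged 8.18% and siHnf4a 17.1% of siCon, with log2 fold changes of -3.59 ± 0.44 (adjusted p = 0.000486) and -2.54 ± 0.41 (adjusted p = 0.00251), and siCebpa overlapped with siCon at -0.22 ± 0.37 (adjusted p = 0.799). F5 encodes factor V, the cofactor with which factor X activates prothrombin. F5 had 6.68, 3.16 and 5.50 CPM in the double knockdown, 8.71, 5.51 and 4.40 in siHnf4a and 16.2, 5.92 and 6.64 in siCebpa, against 19.8, 16.5 and 25 in siCon. No knockdown library reached the lowest siCon library, and the log2 fold changes were -2.0 ± 0.42 (adjusted p = 0.0102), -1.72 ± 0.41 (adjusted p = 0.0194) and -1.09 ± 0.41 (adjusted p = 0.156, or 0.0117 with the block) in the double knockdown, siHnf4a and siCebpa. The siHnf4a call for F5 ended without siHnf4a replicate 2 (adjusted p = 0.0834), siHnf4a replicate 3 (0.0755) or siCon replicate 3 (0.0689).

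F10, which encodes factor X, and F2 differed strongly between mice and passed against siCon only in the double knockdown with mouse as a block. F10 had 34.8, 6.53 and 3.09 CPM in mice 1, 2 and 3 of the double knockdown, 78.1, 35.8 and 7.03 in siHnf4a and 131, 21.2 and 13.7 in siCebpa, against 83.4, 43.3 and 24.8 in siCon. Within siCon alone mouse 1 had 3.36 times the F10 level of mouse 3. In all 3 mice F10 was lowest in the double knockdown, at -1.76 ± 1.10 log2 against siCon (adjusted p = 0.328), which became -2.28 (adjusted p = 0.00155) with mouse as a block. F2 had 311, 156 and 137 CPM in the double knockdown, 462, 280 and 189 in siHnf4a and 610, 268 and 236 in siCebpa, against 471, 334 and 283 in siCon. The double-knockdown value for F2 was -0.85 ± 0.45 log2 (adjusted p = 0.244, or 0.000424 with the block), and F2 passed against siCon in neither single knockdown in either fit.

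The 3 fibrinogen chains are encoded by neighbouring genes on chromosome 3, with 11026 bp between Fgg and Fga and 6513 bp between Fga and Fgb, and all 3 had their highest group mean in siHnf4a. Fga had 464, 533 and 364 CPM in the double knockdown, 979, 1249 and 839 in siHnf4a and 405, 296 and 353 in siCebpa, against 514, 476 and 562 in siCon. Every siHnf4a library exceeded every other library, and the log2 fold change against siCon was 0.98 ± 0.18 (adjusted p = 0.00538) in siHnf4a, beside -0.19 ± 0.18 (adjusted p = 0.534) in the double knockdown and -0.56 ± 0.18 (adjusted p = 0.109, or 0.0429 with the block) in siCebpa. Fgb had 812, 1059 and 978 CPM in the double knockdown, 1598, 2028 and 1725 in siHnf4a and 645, 664 and 1091 in siCebpa, against 783, 838 and 1169 in siCon. Again all siHnf4a libraries were the highest, at 0.94 ± 0.22 log2 above siCon (adjusted p = 0.0184), while the double knockdown stood at 0.03 ± 0.22 (adjusted p = 0.945). This Fgb call ended without siHnf4a replicate 2 (adjusted p = 0.068), siCon replicate 1 (0.055) or siCon replicate 2 (0.0732). Fgg had 221, 146 and 64.3 CPM in the double knockdown, 443, 435 and 224 in siHnf4a and 241, 93.9 and 51.2 in siCebpa, against 288, 183 and 143 in siCon. Its siHnf4a and siCon ranges overlapped, with mouse 3 the lowest in every group, and the log2 fold change of 0.84 ± 0.57 (adjusted p = 0.365) passed only with mouse as a block (adjusted p = 0.0186), as did -0.67 ± 0.56 in siCebpa (adjusted p = 0.568, or 0.0292 with the block). On the TPM scale the 3 chains made up 33.1%, 36.6% and 29.4% of the summed TPM of the 36 genes in the double knockdown, 44.4%, 50% and 44.0% in siHnf4a and 23.3%, 24.4% and 28.3% in siCebpa, against 29.1%, 29.3% and 33.0% in siCon.

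**Figure D3:**
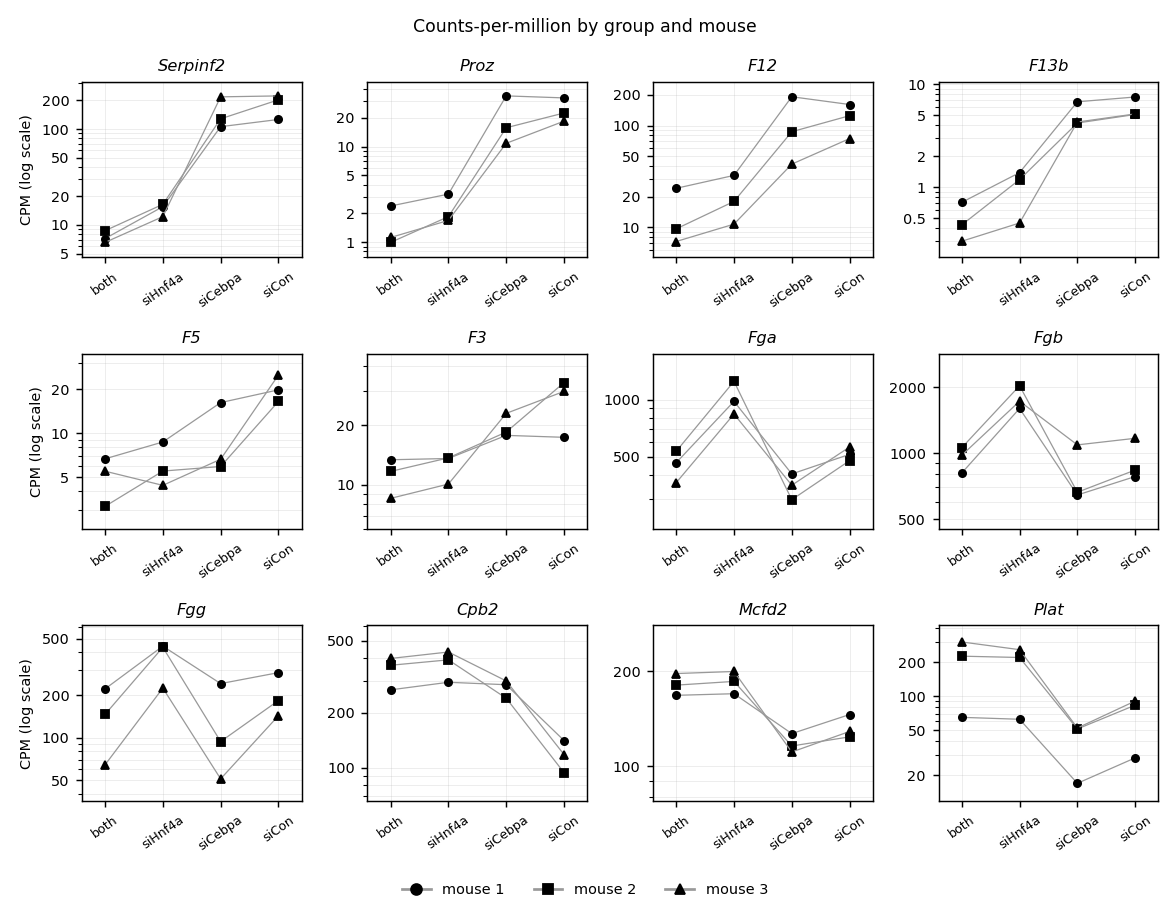
CPM of 12 genes on log axes (ranges differ between panels) in the double knockdown (both), siHnf4a, siCebpa and siCon, with the libraries of a mouse joined by a line. Serpinf2, Proz, F12 and F13b are lowest in both groups with Hnf4a siRNA, Fga, Fgb and Fgg peak in siHnf4a, and Cpb2 is above siCon in all 3 knockdowns.

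Since the fibrinogen genes, Cpb2 and Serpinf2 show the 3 contrasting patterns of this gene set, the sequences around their annotated starts are given, from RefSeq on GRCm38.p6, 250 bases before to 50 after the start and 5′ to 3′ on the gene's strand. The windows are chr3:83025903-83026202 (plus strand) for Fga, chr3:83049814-83050113 (minus strand) for Fgb, chr3:83007474-83007773 (plus strand) for Fgg, chr14:75242037-75242336 (plus strand) for Cpb2 and chr11:75439452-75439751 (minus strand) for Serpinf2. Capitals mark matches to the C/EBP word TTNNGCAA on either strand.
Fga: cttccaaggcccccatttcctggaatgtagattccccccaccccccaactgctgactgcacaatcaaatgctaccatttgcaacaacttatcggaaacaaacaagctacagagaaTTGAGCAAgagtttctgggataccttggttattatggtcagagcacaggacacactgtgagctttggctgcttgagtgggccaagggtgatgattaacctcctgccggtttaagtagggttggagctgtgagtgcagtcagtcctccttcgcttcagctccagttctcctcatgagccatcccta
Fgb: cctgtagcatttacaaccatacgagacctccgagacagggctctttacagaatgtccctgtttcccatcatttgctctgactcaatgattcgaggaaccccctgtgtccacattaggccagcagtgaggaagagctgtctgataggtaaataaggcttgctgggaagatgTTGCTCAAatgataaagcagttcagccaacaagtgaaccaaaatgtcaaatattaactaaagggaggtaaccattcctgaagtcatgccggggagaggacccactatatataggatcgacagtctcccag
Fgg: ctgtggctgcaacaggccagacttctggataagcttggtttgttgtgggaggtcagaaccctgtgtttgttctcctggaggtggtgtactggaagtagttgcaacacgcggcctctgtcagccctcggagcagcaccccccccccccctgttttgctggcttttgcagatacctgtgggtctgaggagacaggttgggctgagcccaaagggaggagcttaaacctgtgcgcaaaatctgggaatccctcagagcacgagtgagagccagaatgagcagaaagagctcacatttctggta
Cpb2: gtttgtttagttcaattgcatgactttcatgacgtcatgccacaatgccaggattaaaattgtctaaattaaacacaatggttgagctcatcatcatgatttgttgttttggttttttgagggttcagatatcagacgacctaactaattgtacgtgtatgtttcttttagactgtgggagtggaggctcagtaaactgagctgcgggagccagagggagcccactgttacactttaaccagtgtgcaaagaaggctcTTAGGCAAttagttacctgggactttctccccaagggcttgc
Serpinf2: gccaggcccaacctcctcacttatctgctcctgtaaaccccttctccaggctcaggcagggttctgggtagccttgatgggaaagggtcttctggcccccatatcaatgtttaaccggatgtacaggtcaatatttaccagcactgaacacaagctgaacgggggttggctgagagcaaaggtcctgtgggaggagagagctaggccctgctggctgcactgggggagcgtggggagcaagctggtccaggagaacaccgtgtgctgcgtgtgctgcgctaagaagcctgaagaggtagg
The match lies 135 to 128 bases before the start in Fga, 80 to 73 bases before it in Fgb and 8 to 15 bases after it in Cpb2, and the windows of Fgg and Serpinf2 hold none. TTNNGCAA was found in 11 of 30 windows of 29 of the 36 genes (Cpb2, F11, F9, Fga, Fgb, Ggcx, Habp2, Hrg, Klkb1, Kng2 and Serpinc1), and in 10.8% of all 32851 windows of the table. The stricter C/EBP word TTGCGCAA, which TTNNGCAA contains, was in 0.183% of all windows, and the HNF4A words CAAAGTCCA and AGGTCAAAG in 0.475% and 0.426%, and none of the 3 was in a window of the 36 genes. A match is a description of letters and not of a bound site, and the absence of these letters from these short windows says nothing about binding.

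Of the 6 anticoagulant genes, Proz was lower in siHnf4a and in the double knockdown and Pros1 in the double knockdown, and none passed in siCebpa. Proz encodes protein Z, the vitamin K-dependent cofactor that brings its inhibitor, the product of Serpina10, to factor X. Proz lies at chr8:13060914-13076026 on the plus strand, 4237 bp after F10. Proz had 2.39, 0.995 and 1.12 CPM in the double knockdown, 3.18, 1.85 and 1.69 in siHnf4a and 33.8, 15.7 and 10.8 in siCebpa, against 32.2, 22.4 and 18.4 in siCon. Levels with Hnf4a siRNA averaged 6.17% of siCon in the double knockdown and 9.21% in siHnf4a, at -4.01 ± 0.50 log2 (adjusted p = 0.000582) and -3.44 ± 0.48 (adjusted p = 0.0012), and siCebpa overlapped with siCon at -0.28 ± 0.43 (adjusted p = 0.776). Its partner Serpina10 had 80.8, 35.5 and 15.5 CPM in the double knockdown, 105, 60.8 and 34.5 in siHnf4a and 170, 83.1 and 60.5 in siCebpa, against 173, 99.9 and 75.0 in siCon. Mouse 1 was the highest in every group, and Serpina10 stood at -1.40 ± 0.61 log2 (adjusted p = 0.161, or 9.3e-05 with the block) in the double knockdown and -0.80 ± 0.60 (adjusted p = 0.423, or 0.00336 with the block) in siHnf4a.

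Pros1 encodes protein S, the cofactor of activated protein C. Pros1 had 22.6, 18.2 and 22.6 CPM in the double knockdown, 27.6, 22.4 and 20.5 in siHnf4a and 24.6, 17.4 and 19.0 in siCebpa, against 33.8, 26.9 and 34.9 in siCon. The double knockdown and siCebpa lay below siCon, at -0.59 ± 0.16 log2 (adjusted p = 0.036) and -0.65 ± 0.17 (adjusted p = 0.0505, or 0.00307 with the block), and siHnf4a overlapped at -0.44 ± 0.16 (adjusted p = 0.101, or 0.0109 with the block). The double-knockdown call ended on limma's test of TPM (adjusted p = 0.0532) and without double-knockdown replicate 1 (0.0653), 2 (0.141) or 3 (0.0751), siHnf4a replicate 2 (0.0603), or siCon replicate 1 (0.0849) or 3 (0.126). Serpinc1, which encodes antithrombin, had 44.3, 30.8 and 23.1 CPM in the double knockdown, 62.4, 57.3 and 34.4 in siHnf4a and 82.3, 49.2 and 34.7 in siCebpa, against 81.2, 63.7 and 40.4 in siCon. The double-knockdown difference of -0.92 ± 0.37 log2 (adjusted p = 0.128) passed only with mouse as a block (0.000125), Serpinc1 passed in neither single knockdown, and its exons overlap Zbtb37 on the other strand, from which reads cannot be told apart where strand was not used. Serpind1, which encodes heparin cofactor II, had 21.6, 31.9 and 48.2 CPM in the double knockdown, 32.3, 47.4 and 59.6 in siHnf4a and 16.6, 21.3 and 31.1 in siCebpa, against 22.6, 30.4 and 45.7 in siCon. It was above siCon in all 3 mice with Hnf4a siRNA alone and below it in all 3 with Cebpa siRNA alone, at 0.50 ± 0.35 (adjusted p = 0.392, or 0.000753 with the block) and -0.52 ± 0.35 (adjusted p = 0.463, or 0.00235 with the block). Proc, which encodes protein C, ranged from 47.7 to 67.3 CPM in the double knockdown, 73.0 to 88.5 in siHnf4a and 56.4 to 80.2 in siCebpa, against 68.0 to 71.0 in siCon, and passed in no comparison.

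In the fibrinolytic system, 2 inhibitors of lysis moved in opposite directions. Serpinf2, which encodes alpha2-antiplasmin, the main plasma inhibitor of plasmin, was lower with Hnf4a siRNA, whereas Cpb2 was higher in all 3 knockdowns. Cpb2 encodes a carboxypeptidase, also called thrombin-activatable fibrinolysis inhibitor, that removes the fibrin lysines to which plasminogen binds. Serpinf2 had 7.2, 8.70 and 6.57 CPM in the double knockdown, 15.5, 16.4 and 12.2 in siHnf4a and 106, 128 and 217 in siCebpa, against 126, 202 and 222 in siCon. The double knockdown averaged 4.09% and siHnf4a 8.03% of siCon, at -4.61 ± 0.32 log2 (adjusted p = 2.01e-05) and -3.64 ± 0.30 (adjusted p = 4.18e-05), which are the largest changes against siCon among the 36 genes in each. In siCebpa the ranges overlapped with siCon, at -0.29 ± 0.27 log2 (adjusted p = 0.609). Serpinf2 lies at chr11:75431732-75439591 on the minus strand, and all 12 single-library omissions kept both calls.

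Cpb2 had 268, 366 and 399 CPM in the double knockdown, 295, 392 and 433 in siHnf4a and 286, 241 and 300 in siCebpa, against 141, 93.8 and 118 in siCon. All 9 knockdown libraries were above the siCon libraries, and the log2 fold changes were 1.55 ± 0.20 (adjusted p = 0.000679) in the double knockdown, 1.66 ± 0.20 (adjusted p = 0.000472) in siHnf4a and 1.23 ± 0.20 (adjusted p = 0.00903) in siCebpa. The siCebpa call ended without siCon replicate 2 (adjusted p = 0.0501), without siCon replicate 3 (0.0537), or with only siCebpa and siCon in the fit (0.053).

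Plat, which encodes tissue plasminogen activator, had 64.9, 226 and 302 CPM in the double knockdown, 62.4, 220 and 258 in siHnf4a and 16.9, 51.2 and 52.2 in siCebpa, against 28.4, 83.2 and 90.5 in siCon. In each mouse both groups with Hnf4a siRNA were above siCon and siCebpa was below it, but mouse 1 was the lowest in every group and each knockdown overlapped with siCon. All libraries of both groups with Hnf4a siRNA were above all siCebpa libraries. The log2 fold changes were 1.55 ± 0.68 (adjusted p = 0.164), 1.42 ± 0.68 (adjusted p = 0.198) and -0.75 ± 0.68 (adjusted p = 0.597) in the double knockdown, siHnf4a and siCebpa, and with mouse as a block the adjusted p-values were 6.64e-06, 1.28e-05 and 0.00162. Against siCebpa, Plat stood at 2.30 ± 0.70 log2 in the double knockdown (adjusted p = 0.054, or 2.08e-06 with the block) and 2.17 ± 0.70 in siHnf4a (adjusted p = 0.0581, or 2.3e-06 with the block). DESeq2 (adjusted p = 0.014 and 0.02) and the edgeR fit without a filter on low counts (0.0163 and 0.0202) called both differences from siCebpa. Plat is also made by endothelial cells, whose summed markers are given above. Against siCebpa, the median log2 fold change of these 11 markers was -0.01 in the double knockdown and 0.35 in siHnf4a. Stab1 was the 1 marker called higher in each, beside 6.51% and 7.51% of all genes tested. The part of endothelial cells in the Plat values was not tested. Plg, which encodes plasminogen, had 38.7, 32.1 and 21.3 CPM in the double knockdown, 57.2, 71.2 and 40.7 in siHnf4a and 55.1, 25.6 and 19.6 in siCebpa, against 45.5, 31.9 and 21.7 in siCon. It was above siCon in all 3 mice of siHnf4a, at 0.77 ± 0.40 log2 (adjusted p = 0.228, or 0.00961 with the block). Hrg, which encodes a histidine-rich plasma protein that binds plasminogen, had 6.72, 1.82 and 1.33 CPM in the double knockdown, 10.8, 3.21 and 1.73 in siHnf4a and 14.1, 5.10 and 2.26 in siCebpa, against 12.9, 10.5 and 6.21 in siCon. Its log2 fold changes in the double knockdown and siHnf4a, -1.58 ± 0.83 (adjusted p = 0.243) and -0.91 ± 0.81 (adjusted p = 0.502), passed with the block at 0.0012 and 0.00889. Plau, which encodes urokinase, stayed between 0.951 and 3.87 CPM and did not pass without the block in the fit of all 12 libraries. With the block it passed against siCon in siCebpa alone, at -0.83 log2 (adjusted p = 0.0377), and against siCebpa it was higher in the double knockdown (adjusted p = 0.0373) and in siHnf4a (adjusted p = 0.0229).

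Among the genes that modify or transport the clotting factors, Mcfd2 alone passed against siCon. Mcfd2 and Lman1 encode the cargo receptor that carries factors V and VIII from the endoplasmic reticulum. Mcfd2 had 168, 181 and 197 CPM in the double knockdown, 170, 186 and 200 in siHnf4a and 127, 116 and 111 in siCebpa, against 146, 124 and 129 in siCon. Both groups with Hnf4a siRNA lay above siCon, at 0.46 ± 0.10 log2 (adjusted p = 0.0107) and 0.48 ± 0.10 (adjusted p = 0.00837), and the double-knockdown call ended without siCon replicate 2 (0.0514). Its partner Lman1 ranged only from 66.7 to 90.9 CPM over all libraries, and was lower in siCebpa with the block alone, at -0.26 log2 (adjusted p = 0.0442). Ggcx, the carboxylase that vitamin K-dependent factors need, and the reductase genes Vkorc1 and Vkorc1l1 passed in no comparison, with log2 fold changes against siCon of -0.31 ± 0.17, -0.25 ± 0.17 and 0.00 ± 0.09 in the double knockdown. Hgfac and Habp2, which encode serum proteases related to factor XII, stood at -0.15 ± 0.18 and -0.36 ± 0.24 log2 in the double knockdown, and Habp2 passed in siCebpa with the block, at -0.54 (adjusted p = 0.0292).

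No gene of the 36 passed the threshold when Cebpa siRNA was added to Hnf4a siRNA. In the double knockdown against siHnf4a, 0 of 36 were called higher or lower by edgeR, as with mouse as a block and by limma on TPM (35 tested), and 0.0% and 0.00663% of all genes tested were higher and lower in edgeR, with and without the block. The only gene called of all 15090 was Cebpa itself, at -1.19 ± 0.12 log2 (adjusted p = 0.0188), beside -0.59 ± 0.28 for Hnf4a (adjusted p = 1.0). The point estimates nevertheless lay mostly on 1 side, with 35 of 36 genes (97.2%) below 0 and a median of -0.47 log2, beside 47.9% below 0 and a median of 0.01 for all genes tested. At an unadjusted p under 0.05 there were 10 of the 36 genes, beside 2.47% of all genes. The summed hepatocyte markers were 8808 to 13166 CPM in the double knockdown, against 10624 to 17585 in siHnf4a. The median log2 difference of these 11 markers was -0.57, and their part in this shift was not tested. The libraries did not overlap for 10 of the 36 genes, F11, Fga, Fgb, Fgg, Proc, Serpinf2, Plg, Kng1, Kng2 and Tfpi, the double knockdown being lower in each. Of all genes tested, 3.76% had the double knockdown below siHnf4a without overlap and 3.71% above it. Fga differed by -1.17 log2 (95% interval -1.57 to -0.77; adjusted p = 0.364), and DESeq2 (adjusted p = 2.42e-06) and the edgeR fit without a filter on low counts (0.021) called it. Fgb differed by -0.91 (-1.40 to -0.42), Fgg by -1.35 (-2.61 to -0.09), Serpinf2 by -0.97 (-1.61 to -0.34) and F11 by -0.69 (-1.02 to -0.35), with adjusted p = 1.0 for each. At the other end, Cpb2 differed by -0.11 (-0.54 to 0.32), Mcfd2 by -0.03 (-0.24 to 0.19) and Plat by 0.13 (-1.34 to 1.60), and Plat was the 1 gene above 0.

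**Figure D4:**
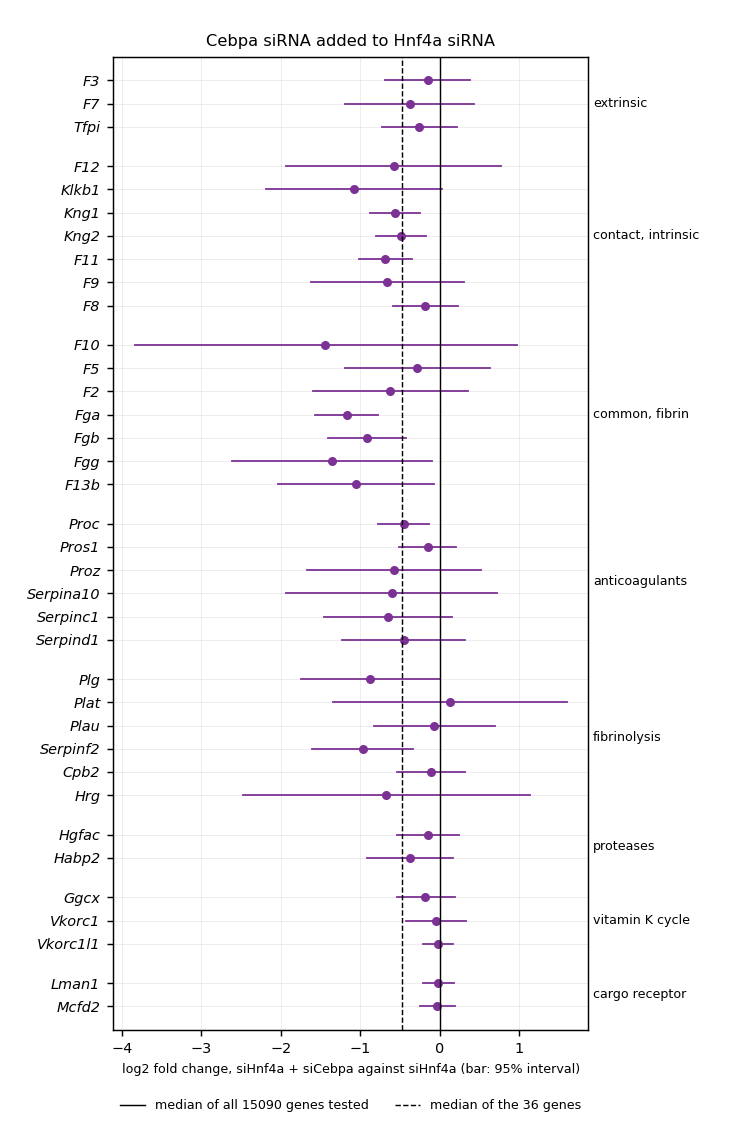
Log2 fold change of the 36 genes in the double knockdown against siHnf4a (point) with its 95% interval (bar), grouped by role, beside the medians of all genes tested (solid line, 0.01) and of the 36 genes (dashed line, -0.47). All points except that of Plat lie below 0, and no gene passed the adjusted p of 0.05.

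Against siCebpa, the double knockdown had 6 lower and 1 higher of the 36 genes, with a background of 6.47% lower and 6.51% higher. The lower genes were Serpinf2 at -4.33 ± 0.31 log2, Proz at -3.73 ± 0.50, F13b at -3.37 ± 0.44, F12 at -2.97 ± 0.64 (adjusted p = 0.0132), F3 at -0.81 ± 0.24 (adjusted p = 0.0499) and Kng1 at -0.57 ± 0.14 (adjusted p = 0.0233). Mcfd2 was higher, at 0.62 ± 0.10 (adjusted p = 0.00241). The F3 call ended in 11 of 12 single-library omissions, all except that of siCon replicate 1 (adjusted p up to 0.17). With only the compared groups in the fit, the calls of F12 (adjusted p = 0.0555), F3 (0.0644) and Kng1 (0.0715) ended. Limma on TPM ended those of Kng1 (0.112) and F3 (0.146), and RLE factors that of F3 (0.0537). The F12 call ended without double-knockdown replicate 2 (0.0665) or 3 (0.0573), and the Kng1 call without double-knockdown replicate 2 (0.095) or 3 (0.103) or siCebpa replicate 1 (0.0576) or 3 (0.0686). With mouse as a block 16 genes were lower and 4 higher, against a background of 14.3% and 13%.

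A direct comparison of siHnf4a with siCebpa, added after the values were seen, had 4 higher and 4 lower of the 36 genes, with a background of 7.51% higher and 8.67% lower. Higher in siHnf4a were Fga at 1.54 ± 0.18 log2 (adjusted p = 0.000498), Fgb at 1.16 ± 0.22 (adjusted p = 0.00667), F11 at 0.75 ± 0.15 (adjusted p = 0.00829) and Mcfd2 at 0.65 ± 0.10 (adjusted p = 0.00171). Lower were Serpinf2 at -3.35 ± 0.29, Proz at -3.16 ± 0.48, F12 at -2.39 ± 0.63 (adjusted p = 0.0261) and F13b at -2.32 ± 0.41 (adjusted p = 0.00387). The F12 call ended without siHnf4a replicate 2 (0.106) or 3 (0.089) or siCebpa replicate 1 (0.0682) or 2 (0.0515), or with only the compared groups in the fit (0.0637). With the block 11 genes were higher and 6 lower, against 14.9% and 16.3% of all genes, and Fgg was then higher as well, at 1.51 ± 0.57 (adjusted p = 0.0994, or 0.000513 with the block).

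The interaction asks whether the change with Cebpa siRNA differed between cells with and without Hnf4a siRNA. Cebpa itself fell to 15.6% of siCon with Cebpa siRNA alone, but to 43.9% of siHnf4a when it was added to Hnf4a siRNA. Hnf4a also stood at 66.4% of its siHnf4a level in the double knockdown. An interaction can therefore not be told apart from these unequal knockdowns. None of the 36 genes passed in edgeR, with 2 of 36 at an unadjusted p under 0.05 (9.86% of all genes) and a background of 0.053% positive and 0.0331% negative calls. Cpb2 stood at -1.34 ± 0.28 log2 (adjusted p = 0.13). Cebpa siRNA alone went with more Cpb2 in all 3 mice, and its addition to Hnf4a siRNA with slightly less. DESeq2 (adjusted p = 0.000576), the fit without a filter (0.0392) and mouse as a block (0.0196) called it. With the block Plat was also called, at 0.86 log2 (adjusted p = 0.0155; 0.825 without the block), where the background was 1.99% positive and 1.83% negative.

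Mouse 1 stood apart for many of these genes. The same mouse had the highest CPM in all 4 groups for 15 of 36 genes (41.7%), 13 times mouse 1 and in Plat and Serpind1 mouse 3, beside 22.9% of all genes tested. Among all 15090 genes tested it was mouse 1 in 1788, mouse 2 in 394 and mouse 3 in 1280. The median range between the 3 siCon libraries was 0.56 log2 for the 36 genes and 0.30 for all genes. Cd68, a macrophage marker, was also highest in mouse 1, at 347, 89.6 and 101 CPM in mice 1, 2 and 3 of the double knockdown, 415, 121 and 85.8 in siHnf4a and 366, 59.3 and 50 in siCebpa, against 248, 77.4 and 72.4 in siCon. Of the 13 macrophage markers, Cd68 and Adgre1 (at most 1.71 CPM) were highest in mouse 1 in all 4 groups, whereas Clec4f (at most 1.57 CPM), C1qa and C1qb were highest in mouse 3 in all 4. Of the 11 hepatocyte markers, 5 were highest in mouse 1 in all 4 groups (Alb, Apoc1, Serpina1c, Hpx and Ambp) and none in mouse 2 or mouse 3. Of the 11 endothelial markers, 5 were highest in mouse 3 in all 4 groups (Kdr, Stab1, Clec4g, Ptprb and Emcn) and 1 in mouse 1 (Stab2). Of the 12 stellate cell and fibroblast markers, 1 was highest in mouse 1 in all 4 groups, 2 in mouse 2 and 2 in mouse 3. The part of any of these cell types in the mouse pattern was not tested.

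Of 32 further haemostasis genes listed, 27 were tested, and 7 were lower and 1 higher in the double knockdown, 6 lower and 1 higher in siHnf4a and 0 in siCebpa. The shares of all genes tested were 7.13% lower and 6.9% higher, 7.29% and 7.24%, and 1.72% and 2.94% in the same order. The thrombin receptor gene F2r had 22.6, 23.2 and 21.2 CPM in the double knockdown, 18.8, 22.4 and 18.0 in siHnf4a and 41.2, 42.3 and 28.0 in siCebpa, against 51.7, 47.5 and 39.7 in siCon. It was lower by -1.05 ± 0.16 log2 (adjusted p = 0.00167) and -1.23 ± 0.16 (adjusted p = 0.000754) in the double knockdown and siHnf4a. Cpn2, which encodes the regulatory subunit of carboxypeptidase N, was lower by -3.80 ± 0.69 (adjusted p = 0.00482) and -2.34 ± 0.64 (adjusted p = 0.0324). F2rl1, Tfpi2 and St14 were lower in both groups, and Masp2 and Cpn1 in the double knockdown, while the protease gene Hpn was higher, at 0.57 ± 0.13 (adjusted p = 0.0128) and 0.52 ± 0.13 (adjusted p = 0.02). Thbd, which encodes the thrombin receptor thrombomodulin, had 4.02, 12 and 17.7 CPM in the double knockdown, 4.73, 12.2 and 11.9 in siHnf4a and 10.8, 51.2 and 189 in siCebpa, against 16.1, 82.4 and 120 in siCon. Against siCon Thbd passed only with mouse as a block, in the double knockdown and siHnf4a (adjusted p of 0.000885 and 0.000814). The part of other cell types in the values of these further genes was not tested. With the block 14 of the 27 were lower and 2 higher in the double knockdown, 13 lower and 3 higher in siHnf4a and 1 lower and 2 higher in siCebpa. The shares of all genes tested were then 15.6% lower and 13.8% higher, 15.5% and 14.5%, and 8.11% and 8.73%. Without single libraries the number called was 4 to 11 in the double knockdown, lowest without double-knockdown replicate 3, and 2 to 11 in siHnf4a, lowest without siHnf4a replicate 3, siCon replicate 2 or siCon replicate 3.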

How the data were processed

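Total RNA of cultured mouse primary hepatocytes was sequenced on a BGISEQ-500 in 12 libraries, 4 siRNA groups of 3, and each replicate number stands for 1 animal, per the labels and the series' design text. The authors deposited expected counts per gene, estimated and not normalised, and TPM values per gene. Trim Galore 0.6.4, kallisto 0.4.6 and GRCm38.p6 are named in the submitters' processing notes. Which annotation, strand option or filter went into the counting is not given in the sources used here. Of 55385 gene IDs, 54487 matched GENCODE M21 with their version and 55144 without it.

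Expected counts were rounded and tested in R 4.3.3 with edgeR 4.0.16 (filterByExpr, TMM, quasi-likelihood, 1 mean per group over 12 libraries, 8 residual degrees of freedom), two-sided, with Benjamini-Hochberg adjustment over 15090 genes and a threshold of 0.05. Without mouse as a block, this fit treated the 12 libraries as independent, although each mouse gave 1 library to every group. Its p-values rest on the spread between libraries within groups. With the block, the p-values rest on the spread left once differences between mice are removed. Either spread was moderated across genes, and both come from the same 3 mice. CPM are TMM-scaled. Alternatives were DESeq2 1.42.0, RLE factors, no filter, a fit of only the compared groups, limma 3.58.1 on log2(TPM + 1), mouse as a block (leaving 6 residual degrees of freedom), and omission of each library in turn. All of these except the block itself left mouse out of the model. The omissions therefore ignored the pairing, and calls with the block were not put through omissions. The test without the block was run on simulated data for siHnf4a against siCon. These data held no differences between mice, so the check cannot speak to the pairing.

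Libraries of the same mouse deviated together (r of 0.16 to 0.68 over 18 pairs, 12 of 12 libraries closest to their own mouse), and the mouse is the same animal across groups. Blocked values are therefore given where they change a call of a member against siCon or in the interaction. For comparisons with siCebpa and for the further haemostasis genes, the blocked counts are given, with values for some genes only. Named genes are all 36 members, those past the threshold or with groups that do not overlap getting values per library, with Hnf4a, Cebpa and called genes of a further haemostasis list. A called gene of that list is not reported here. Thbd and the markers were named outside this rule, after their values were seen. The members and lists were chosen with earlier results of these data known. Promoter words were searched in RefSeq windows, and figures were drawn with Python 3.11.15 and matplotlib 3.10.9.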

Additional observations from a re-analysis of the deposited data

Results flagged for a closer look

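In Plat and Cpb2 the change with Cebpa siRNA had opposite signs without and with Hnf4a siRNA in every mouse. The difference itself passed the test with mouse as a block. How many of all genes tested had such opposite signs was not counted, so these signs have no background to be read against. With Hnf4a siRNA the change was small, the double knockdown averaging 110% of siHnf4a for Plat and 92.4% for Cpb2. It was called neither with nor without the block, so that a reversal is not established. Cebpa siRNA left 15.6% of the siCon level of Cebpa when alone and 43.9% of the siHnf4a level when added. An interaction cannot be told apart from this unequal knockdown. Plat was lower with Cebpa siRNA alone in all 3 mice and higher in all 3 when Cebpa siRNA was added to Hnf4a siRNA, an interaction of 0.86 log2 in the blocked fit (adjusted p = 0.0155) and 0.88 ± 0.95 in the unblocked fit (adjusted p = 0.825). Cpb2 was higher with Cebpa siRNA alone in all 3 mice and lower in all 3 when it was added, an interaction of -1.34 log2 in the blocked fit (adjusted p = 0.0196) and in the unblocked fit (adjusted p = 0.13). With the block, 1.99% of all genes tested had a positive and 1.83% a negative interaction call, beside 1 of the 36 genes in each direction.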

How the results depend on the processing

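With mouse as a block, the number of the 36 genes called became 20 (10 without it) for siHnf4a against siCon, 12 (2) for siCebpa against siCon, 20 (7) for the double knockdown against siCebpa, 17 (8) for siHnf4a against siCebpa and 2 (0) for the interaction, and no call was lost. DESeq2 called 4 for siCebpa against siCon, 1 for the double knockdown against siHnf4a and 1 for the interaction, and the fit without a filter on low counts called 1 in each of these last 2. With only the compared groups, 0 were called for siCebpa against siCon and 4 for the double knockdown against siCebpa. Leaving out 1 library gave 0 to 5 for siCebpa against siCon and 4 to 8 for the double knockdown against siCebpa. The 14 calls of the double knockdown against siCon varied from 10 to 14 under these omissions, and those of siHnf4a against siCon from 7 to 11. Among the further haemostasis genes the block gave 16 (7) for siHnf4a, 3 (0) for siCebpa and 16 (8) for the double knockdown against siCon, 14 (8) for the double knockdown against siCebpa and 14 (8) for siHnf4a against siCebpa. Their omission ranges were 2 to 11, 0 to 2, 4 to 11, 3 to 10 and 4 to 10. The median log2 difference of TPM between the double knockdown and siCon was -0.59 with a pseudocount of 1 and -0.39 with 5. Of 41 called gene values, 1 lost its call with RLE factors, 3 with limma on TPM and 6 with only the compared groups, and none changed sign. The cause of these differences was not tested. Low genes such as F8, Klkb1 and Tfpi rest on few reads, which limits what could be detected. F13b too had few counts with Hnf4a siRNA, 18, 10 and 7 in the double knockdown and 35, 29 and 11 in siHnf4a. Its double-knockdown mean was 8.18% of siCon in CPM and 10.4% in TPM.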
